A study of Mus musculus with 4 samples.

Results

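The subunits of cohesin and the centromeric protector of cohesin were followed in control and irradiated mouse oocytes. The 10 genes were taken by symbol from general knowledge of the complex, and 9 of them, with 29 RefSeq transcripts, were analysed among 17374 genes and 45505 transcripts. They are Smc3, the SMC1 subunits Smc1a and Smc1b, the kleisins Rad21 and Rad21l, the SA subunits Stag1, Stag2 and Stag3, and the protector Sgo2a. Rec8, the kleisin that joins sister chromatids in meiosis, was not analysed here because no row carried its gene ID, so every statement on kleisins below leaves it out.

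The study used germinal vesicle stage oocytes, which are arrested in meiotic prophase, to ask how acute genotoxic stress acts on the oocyte transcriptome. All oocytes came from non-primed females of a C57/Bl6/DBA2J F1 hybrid background on postnatal day 16, were freed of cumulus cells and of the zona pellucida, and were kept in milrinone, which prevents meiotic resumption. The 2 control libraries were made from non-irradiated oocytes, and the 2 irradiated libraries from oocytes collected 24 h after 5 Gy of γ-irradiation from a cesium-137 source. The study used 59 oocytes per condition, pooled, in 2 independent experiments. How long the control oocytes spent in culture is not given in the sources used here, so irradiation and time in culture cannot be told apart. In pools of this kind, fewer cells with a transcript and less of it in each cell also cannot be told apart.

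Cohesin is a ring of an SMC1 subunit, SMC3 and a kleisin, to which an SA subunit is bound. Mitotic cells use SMC1A, RAD21 and either STAG1 or STAG2, whereas germ cells add the meiotic forms SMC1B, RAD21L, REC8 and STAG3. In the oocyte, cohesin holds homologs and sister chromatids together from fetal life until the meiotic divisions, and SGO2 recruits the phosphatase PP2A to keep separase from cleaving it at centromeres in the first division.

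The libraries held between 33349466 and 37232818 estimated counts. Irradiated library 2 stood apart from the others. Over 9438 genes with a mean of at least 1 TPM (a level corrected for transcript length and scaled so that all libraries sum alike), the root mean square difference in log2(TPM + 1) was 0.178 between the control libraries, and 0.197 and 0.189 between irradiated library 1 and the controls. Irradiated library 2 differed by 0.595, 0.521 and 0.521 from control library 1, control library 2 and irradiated library 1, and 4.47% to 7.58% of these genes lay more than 2-fold apart. The 13 oocyte marker genes summed to between 53308 and 53831 TPM in the other 3 libraries and to 47810 TPM in irradiated library 2. They did not move alike there. Zp1, Zp3, Nobox and Ddx4 were the highest of the 4 libraries, with Nobox at 1215 TPM against 398 to 468 TPM. Zp2, Gdf9, Bmp15, Oosp1, Dppa3 and Padi6 were the lowest, with Zp2 at 1937 TPM against 4115 to 4452 TPM. Figla, Nlrp5 and Kit lay within the range of the others. The 8 granulosa and cumulus markers with rows, of 12, summed to 16.7 to 19.1 TPM in the other 3 libraries and 22.4 TPM in irradiated library 2. Hsd17b1 was at or under 3 counts in every library. Nr5a2 had 7.43 TPM in irradiated library 2 against 3.53 to 4.93 TPM in the others. Fshr, Cyp19a1, Nr5a1 and Hsd17b1 were also the highest there, whereas Kitl and Inhba were the lowest and Inha lay within the range of the others. The 5 markers of other ovarian cells with rows, of 10, gave 6.7 to 7.9 TPM in the other 3 libraries and 11.6 TPM in irradiated library 2. Cyp17a1 was at or under 3 counts throughout. The part of these differences in the results below was not tested. The fold changes of the gene totals are therefore given with and without irradiated library 2.

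Short windows around RefSeq start sites of 5 members, meiotic and mitotic, are printed here. They share the letters TTCCCGC, a core of the motif bound by E2F factors, which are cell cycle regulators. RefSeq promoter windows of GRCm38.p6, from 250 bases before the start to 50 bases after it, were given for 8 of the 10 genes, all but Rad21 and Stag2. The motif, searched on both strands, was in a window of Sgo2a, Smc1a, Smc1b, Stag1 and Stag3. It was in 4.6% of all 32851 windows. Each line gives 30 bases of the gene's strand, 5′ to 3′, with the motif in capitals.
Smc1b: gaaaagaatttcTTCCCGCgcttttttttt
Stag3: ttatcccgtgccTTCCCGCgtttttttcta
Sgo2a: ggcagcacccgcTTCCCGCaccatgggaca
Smc1a: cggcttgcactgcgctatTTCCCGCgcggg
Stag1: aaaaggccacgtTTCCCGCgccgctgctgc
The windows lie at chr15:85131988-85132017 on the minus strand for Smc1b and, on the plus strand, at chr5:138280494-138280523 for Stag3, chr1:57985342-57985371 for Sgo2a, chrX:152016448-152016477 for Smc1a and chr9:100643420-100643449 for Stag1. The start sites of Stag1 and Stag3 used here lie inside the gene spans given below, downstream of the first annotated base. Counted from the start base as 0, the first base of the motif was at -48 in Smc1b, -16 in Stag1, -3 in Stag3, 14 in Sgo2a and 38 in Smc1a. Of the other motifs searched on both strands, TCTCGCG was in windows of Smc1b and Stag3 and in 2.56% of all windows, CACGTG in that of Stag3 and in 7.15%, and ATTGG in those of 7 of the 8 genes and in 37.4%. The matches to TCTCGCG in Smc1b, on opposite strands at -74 and -71, overlapped each other, and no other matches in the windows of these 5 starts did. A match describes the sequence, not a bound site.

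The levels of the subunits differed widely, with Smc3 at the top and Stag3 at the bottom. Smc3, the subunit that every cohesin ring contains (chromosome 19, 53600396 to 53645831, GRCm38), had 37.4 and 36.1 TPM in control libraries 1 and 2, and 36.3 and 28.7 TPM in irradiated libraries 1 and 2. Its control mean of 36.7 ± 0.912 TPM (SD, n = 2) ranked 2128 of 17374 genes. It was the most abundant subunit in each library, and its range did not meet that of any other member.

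The SMC1 subunits followed. Smc1a, the mitotic form (chromosome X, 152016428 to 152061973), had 12.4 and 10.7 TPM in the controls, and 10.1 and 10.98 TPM in the irradiated libraries. Smc1b, the meiotic form (chromosome 15, 85064689 to 85131957), had 9.42 and 9.01 TPM in the controls, and 9.18 and 13.4 TPM in the irradiated libraries. Irradiated library 2 was the highest for Smc1b, and the ranges of both genes over the 4 libraries overlapped. In the controls alone Smc1a was above Smc1b.

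The kleisins stood at like levels. Rad21, the mitotic kleisin (chromosome 15, 51962604 to 51993538), had 6.07 and 6.22 TPM in the controls, and 5.75 and 9.41 TPM in the irradiated libraries. Rad21l, a kleisin of meiotic prophase (chromosome 2, 151644366 to 151670622), had 5.98 and 6.54 TPM in the controls, and 5.55 and 11.4 TPM in the irradiated libraries. For both, irradiated library 1 was the lowest and irradiated library 2 the highest, so the irradiated SDs of 2.59 and 4.11 TPM were far above the control SDs of 0.106 and 0.396 TPM.

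The SA subunits were the lowest. Stag2, which is mitotic (chromosome X, 42149297 to 42277186), had 2.75 and 3.0 TPM in the controls, and 2.38 and 2.16 TPM in the irradiated libraries. Stag1, its mitotic relative (chromosome 9, 100597709 to 100958544), had 1.58 and 1.51 TPM in the controls, and 1.44 and 1.51 TPM in the irradiated libraries. Stag3, the meiotic form (chromosome 5, 138272514 to 138312397), had 0.24 and 0.34 TPM in the controls, and 0.34 and 0.29 TPM in the irradiated libraries. Stag3 rested on 24 to 33 estimated counts per library and ranked 11441 of 17374 genes in the controls. The ranges of Stag2, Stag1 and Stag3 over the 4 libraries did not meet.

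Sgo2a, the shugoshin that protects centromeric cohesin (chromosome 1, 57985340 to 58026277), had 8.33 and 9.33 TPM in the controls, and 8.63 and 8.33 TPM in the irradiated libraries. It lay between Smc1b and Rad21l by its control mean, and its range overlapped those of both. Of its 7007 exonic bases, 35.0% lie under exons of Kctd18 on the opposite strand. Whether the counting used strand is not given in the sources used here, so reads of the overlapping part could belong to either gene. No other member shared exonic bases with another gene, except 28 bases of Stag2.

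**Figure D1:**
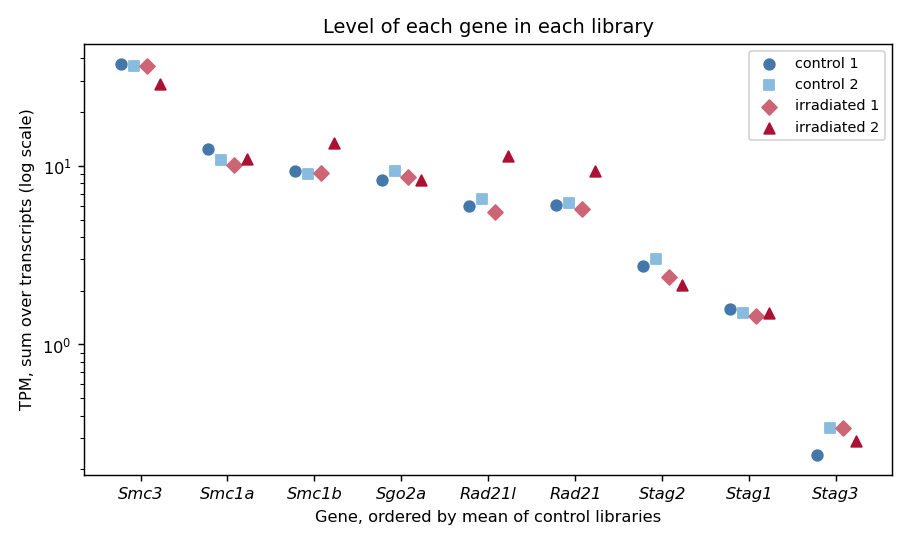
Level in TPM (log axis) of each subunit in each of the 4 libraries, as points by library, ordered by the control mean. Smc3 lay between 28.7 and 37.4 TPM and Stag3 between 0.24 and 0.34 TPM, and irradiated library 2 was the highest for Smc1b, Rad21l and Rad21 and the lowest for Smc3.

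Summed by position in the ring, the SMC1 subunits gave 21.9 and 19.7 TPM in the controls, and 19.2 and 24.4 TPM in the irradiated libraries. The kleisins without Rec8 gave 12.1 and 12.8 TPM, and 11.3 and 20.8 TPM. The SA subunits gave 4.57 and 4.85 TPM, and 4.16 and 3.96 TPM. The SA sum was the smallest in each library, and Smc3 alone exceeded it by a factor of 7.24 to 8.73. The ratio of Smc3 to the kleisin sum was 3.10 and 2.83 in the controls and 3.21 in irradiated library 1, but 1.38 in irradiated library 2. Likewise, the ratio of Smc3 to the SMC1 sum was 1.71 and 1.83 in the controls, 1.89 in irradiated library 1 and 1.18 in irradiated library 2. In both ratios irradiated library 1 lay above the controls and irradiated library 2 below them.

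Each meiotic subunit was next set against its mitotic counterpart within a library, since that ratio does not depend on scaling between libraries. The exact permutation test over the libraries (two-sided) cannot give a p below 0.333 with 2 against 2. The ratio of Smc1b to Smc1a was 0.757 and 0.84 in the controls, and 0.912 and 1.22 in the irradiated libraries. Both irradiated libraries lay above both controls, by 0.40 on the log2 scale (exact permutation p = 0.333), and the difference ranged from 0.19 to 0.61 with 1 library left out. Smc1b made up 43.1% and 45.6% of the SMC1 sum in the controls, and 47.7% and 54.9% in the irradiated libraries.

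The ratio of Stag3 to Stag2 was 0.087 and 0.113 in the controls, and 0.143 and 0.134 in the irradiated libraries. Both irradiated libraries again lay above both controls, by 0.48 on the log2 scale (exact permutation p = 0.333), but with the curated (NM) transcripts alone the difference was 0.10. For Stag3 over Stag1 the ratios of 0.152 and 0.225 in the controls, and 0.236 and 0.192 in the irradiated libraries, overlapped between conditions (difference 0.20 on the log2 scale, exact permutation p = 0.667). The ratio of Rad21l to Rad21 was 0.985 and 1.05 in the controls, and 0.965 and 1.21 in the irradiated libraries, and it differed by 0.085 on the log2 scale (exact permutation p = 1.0). These 4 pairs were compared, and this test could not have passed a threshold of 0.05 for any of them. With 1 library left out the difference ranged from 0.29 to 0.67 for Stag3 over Stag2, and it took both signs for Stag3 over Stag1 (-0.081 to 0.49) and Rad21l over Rad21 (-0.076 to 0.25).

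**Figure D2:**
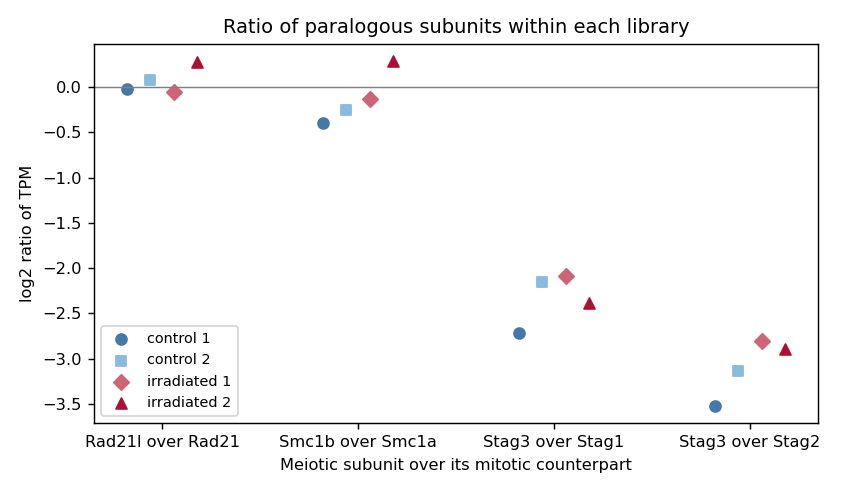
Log2 ratio of the TPM of a meiotic subunit to that of its mitotic counterpart, with 1 point for each library. Values above 0 mean more of the meiotic transcript, which for Smc1b over Smc1a held in irradiated library 2 alone (0.29).

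None of the 9 members passed the limits for a change of the gene total after irradiation, tested by edgeR's quasi-likelihood method. The limits were a Benjamini-Hochberg adjusted p of 0.05 and a 2-unit change in log2 value. Over all 12569 genes tested, 1 gene passed, which is 0.00796%. All 9 members passed the filter on low counts. At an unadjusted p under 0.05 stood 1 member, Stag2, and 744 genes in all, or 5.92% (1.29% for those with a fold change below 0, as Stag2 had). The fold change was above 0 for 3 members and below 0 for 6, with a median of -0.33, whereas 51.4% of all genes were above 0 and their median was 0.010. The 95% intervals of the 9 fold changes spanned from -1.14 to 0.66 on the log2 scale, so a change as large as the limit of 2 lay outside each of them.

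The values of this comparison are counts scaled by TMM factors. Stag2 had 440 and 448 normalized counts in the controls, and 366 and 252 in the irradiated libraries. Both irradiated libraries lay below both controls, and the control counts differed little. The log2 fold change was -0.53 (SE 0.199, unadjusted p = 0.0338, adjusted p = 0.708). Leaving out irradiated library 2 gave -0.28, and leaving out irradiated library 1 gave -0.83.

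Smc1a had 1323 and 1071 normalized counts in the controls, and 1020 and 841 in the irradiated libraries (log2 fold change -0.36, SE 0.166, adjusted p = 0.708). Stag1 had 295 and 266 in the controls, and 248 and 189 in the irradiated libraries (log2 fold change -0.37, SE 0.191, adjusted p = 0.708). For both genes the irradiated libraries were below the controls, and without irradiated library 2 the log2 fold changes were -0.23 and -0.18. Sgo2a had 1199 and 1262 in the controls, and 1184 and 865 in the irradiated libraries (log2 fold change -0.27, SE 0.175, adjusted p = 0.714). Here irradiated library 1 was just below control library 1, and the log2 fold change was -0.055 without irradiated library 2. Both irradiated libraries thus lay below both controls for 4 of the 9 members and above them for none, against 19.9% of all genes below and 22.1% above. By library size alone 4 members were below, with Smc3 in place of Sgo2a, against 9.31% of all genes, and 0 were above, against 26.9%. In TPM 1 member, Stag2, was below, against 5.9%, and 0 were above, against 32.8%.

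Smc3 had 4898 and 4439 normalized counts in the controls, and 4535 and 2706 in the irradiated libraries. Irradiated library 1 lay between the controls, and irradiated library 2 was far below them. The log2 fold change was -0.37 (SE 0.246, adjusted p = 0.714) with all libraries and -0.042 without irradiated library 2. Stag3 had 24.6 and 35.8 normalized counts in the controls, and 25.5 and 22.4 in the irradiated libraries. The groups overlapped (log2 fold change -0.33, SE 0.340, adjusted p = 0.767, and -0.24 without irradiated library 2), and the interval from -1.14 to 0.47 was the widest of the 9. Differences within that interval are not excluded by these counts, and what set its width was not tested.

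The signs for the kleisins turned on irradiated library 2. That for Smc1b, whose value was near 0, also turned without control library 2 (-0.039). Rad21l had 446 and 458 normalized counts in the controls, and 395 and 611 in the irradiated libraries (log2 fold change 0.16, SE 0.214, adjusted p = 0.818). Rad21 had 568 and 547 in the controls, and 515 and 636 in the irradiated libraries (log2 fold change 0.047, SE 0.153, adjusted p = 0.922). For each kleisin, 1 irradiated library was below both controls and the other above them. Smc1b had 1020 and 916 in the controls, and 948 and 1044 in the irradiated libraries, which overlapped (log2 fold change 0.041, SE 0.136, adjusted p = 0.923). Without irradiated library 2 the 3 fold changes turned below 0, to -0.20 for Rad21l, -0.11 for Rad21 and -0.030 for Smc1b. The median of the 9 members was then -0.18 against 0.0026 over all genes, and Smc1b, Smc3 (-0.0415) and Sgo2a (-0.055) lay close to 0. Irradiated library 2 was left out because it stood apart, and 1 irradiated library then remained.

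**Figure D3:**
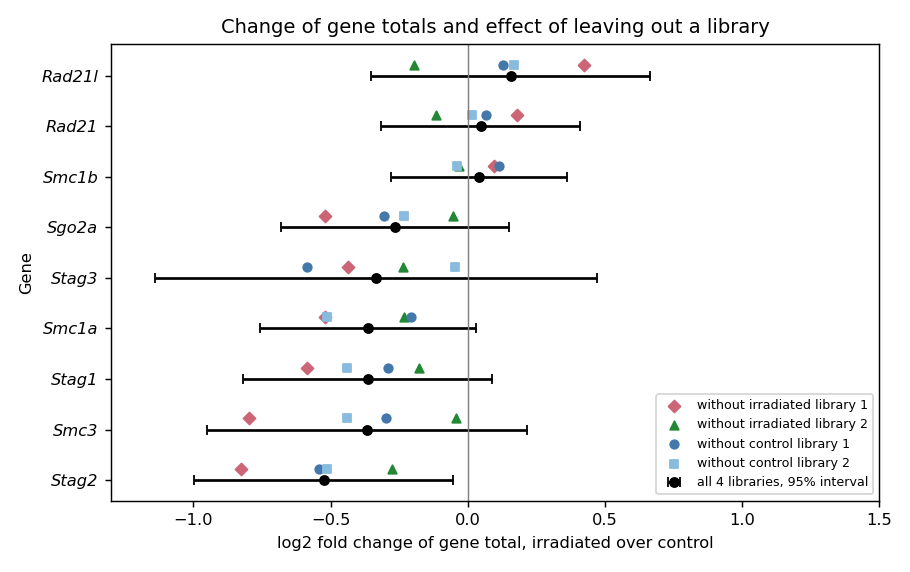
Log2 fold change of each gene total, irradiated over control, with all 4 libraries (black points, bars showing the 95% interval) and with 1 library omitted at a time (coloured markers). The intervals of all members but Stag2 (upper bound -0.054) included 0, and for Smc3 the value was -0.80 when irradiated library 1 was omitted and -0.042 when irradiated library 2 was.

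The spread over transcripts was examined for the members with more than 1 listed transcript. Smc3, Smc1a, Smc1b and Sgo2a were each measured as 1 transcript. Of the 29 transcripts, 19 passed the filter on low counts, and edgeR called 0 of them, as it called 0% of the 26645 transcripts tested. At an unadjusted p under 0.05 stood 1 of the 19, and 4.9% of all. DESeq2 called 1, a Stag2 transcript, and 0.862% of the 28757 transcripts to which it gave an adjusted p. Estimated counts of transcripts carry the error of dividing reads among isoforms, and the common dispersion was 0.473 for transcripts against 0.0251 for gene totals.

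The Stag2 transcript was NM_001358225.1, with 105 and 119 estimated counts in control libraries 1 and 2, and 0 in both irradiated libraries. It held 24.6% and 28.8% of the counts of its gene in the controls. Against a floor of 3 counts in each library, its mean estimated count was at least 41.0-fold lower in the irradiated libraries. This value leaves out the error of dividing reads among isoforms, so it does not bound the true change of NM_001358225.1. Its adjusted p was 0.777 by edgeR's quasi-likelihood test, 0.820 to 0.964 over the alternatives with edgeR or limma, and 5.8152e-05 by DESeq2. The calls of these tools thus differ for the same counts.

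Other Stag2 transcripts did not follow one direction. NM_021465.4 had 53.5 and 105 estimated counts in the controls, and 19.3 and 0 in the irradiated libraries. NM_001077712.2 had 177 and 81.5 in the controls, and 183 and 163 in the irradiated libraries, where it held 53.2% and 55.6% of the gene. The former was lower in both irradiated libraries, whereas the latter overlapped between conditions. XM_011250987.1 had 40.8, 82.8 and 79.1 estimated counts in control libraries 1 and 2 and irradiated library 1, and 0 in irradiated library 2. NM_001290713.2 had between 23.2 and 58.99 in all 4 libraries, with overlap. XM_011250985.3 was at 0 in both controls and had 8.69 and 31.5 in the irradiated libraries. The scaled mean of the irradiated libraries, not each library alone, was 5.74-fold above the floor. XM_030251277.1 was counted in irradiated library 2 alone (39.6). Differential use of Stag2 transcripts had an unadjusted p of 0.0237 and an adjusted p of 0.518 with edgeR's diffSpliceDGE and Simes' method. That test called 0.253% of 6323 genes, and 6.12% of them had an unadjusted p under 0.05.

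For Rad21l, the predicted transcript XM_006500042.2 held 78.3% and 100% of the counts in the controls, 73.8% in irradiated library 1 and 29.0% in irradiated library 2. XM_006500044.2 held 15.2%, 0%, 26.2% and 63.7% in the same order. The high total of Rad21l in irradiated library 2 thus sat in XM_006500044.2, with 452 estimated counts there against 0 to 97.3 in the other libraries. For Rad21, XM_006520644.1 held 90.3% to 100% of the counts in each library, and the curated NM_009009.4 the rest. NM_009282.4 held 57.5% to 77.9% of Stag1, XM_006510923.3 between 7.85% and 16.6%, and the other Stag1 transcripts that reached 10% in a library, NM_001357264.1, XM_006510924.3 and XM_006510925.2, stayed at or below 12.9%. NM_016964.2 held 39.3% to 88.8% of Stag3, where XM_006504601.1, XM_006504596.3 and XM_017320971.2 also reached 10% in a library, on at most 10.7 estimated counts. In these 3 genes with tested isoform use, Rad21, Rad21l and Stag1, the adjusted p was 1 (diffSpliceDGE).

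**Figure D4:**
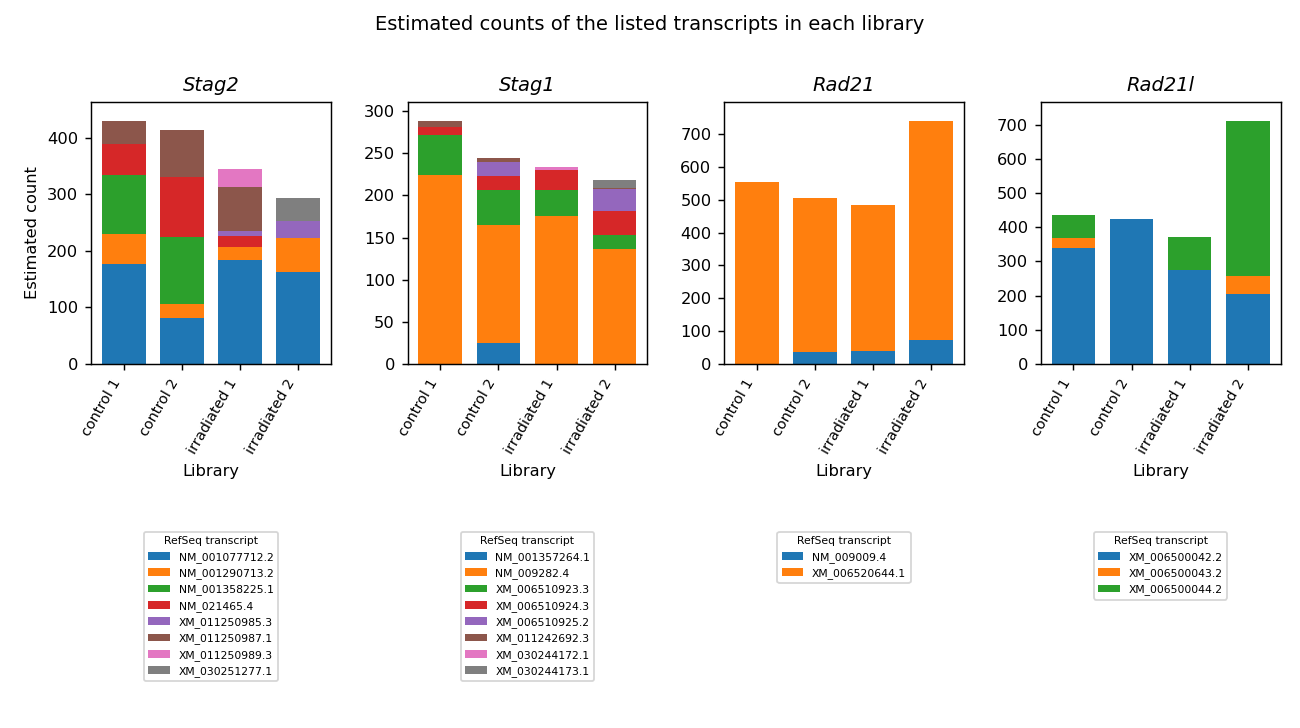
Estimated counts of each listed transcript (stacked colours) of Stag2, Stag1, Rad21 and Rad21l in the 4 libraries, each gene on its own linear axis from 0. NM_001358225.1 of Stag2 (green) was counted in the control libraries alone, and XM_006500044.2 of Rad21l (green) made up most of the bar of irradiated library 2.

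Loading, release, acetylation, cleavage and protection of cohesin were covered by 31 further genes, all of which were tested. None was called, against 0.00796% of all genes, and 4 had an unadjusted p under 0.05, against 5.92%. The fold change was above 0 for 13 and below 0 for 18, with a median of -0.028 against 0.010 over all genes, and the median was 0.017 without irradiated library 2. Both irradiated libraries lay above both controls for 7 of the 31, against 22.1% of all genes, and below for 9, against 19.9%. As listed by role, the 7 genes of loading and release had a median log2 fold change of -0.23 and the 3 of the acetylation cycle -0.17. The 6 of cleavage had -0.084 and the 15 of protection 0.035. The lists pool genes of unlike action. Separase (Espl1) and its inhibitor securin (Pttg1) share a list, as do Wapl, its antagonist Cdca5 and Ctcf, and kinases stand beside the shugoshins. A median therefore does not measure how far a role changed. Without irradiated library 2 these medians were -0.12, -0.067, 0.036 and 0.066, so that of cleavage turned in sign. Without irradiated library 1 the median of protection turned, to -0.016.

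Among the loading genes, Mau2, a subunit of the cohesin loader, had 457 and 430 normalized counts in the controls, and 560 and 640 in the irradiated libraries. Both irradiated libraries were above both controls (log2 fold change 0.44, SE 0.141, unadjusted p = 0.0179, adjusted p = 0.708, edgeR), and the value ranged from 0.34, without irradiated library 2, to 0.52 with 1 library left out. Nipbl, the partner of Mau2 in the loader, had 644 and 675 in the controls, and 602 and 520 in the irradiated libraries, where both were lower (log2 fold change -0.23, SE 0.140, adjusted p = 0.708). Wapl, which releases cohesin from chromatin, had 25252 and 23890 in the controls, and 25927 and 22736 in the irradiated libraries, with overlap (log2 fold change -0.014, SE 0.207, adjusted p = 0.983). Leaving out irradiated library 2 gave -0.13 for Nipbl and turned the sign for Wapl, to 0.078. The fold changes of the loader's subunits thus had opposite signs, and neither was called.

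Of the cleavage genes, Cdc27, a subunit of the anaphase-promoting complex, had 7422 and 7307 normalized counts in the controls, and 5996 and 4245 in the irradiated libraries. Both irradiated libraries were below both controls (log2 fold change -0.52, SE 0.201, unadjusted p = 0.0355, adjusted p = 0.708, edgeR), and the value was -0.30 with irradiated library 2 left out, or -0.81 with irradiated library 1 left out. Espl1, which encodes the protease separase, had 392 and 308 in the controls, and 433 and 376 in the irradiated libraries, with overlap (log2 fold change 0.21, SE 0.175, adjusted p = 0.738), and the value was 0.31 with irradiated library 2 left out.

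The list of protection holds Plk1, a mitotic kinase that phosphorylates cohesin, beside the shugoshins and PP2A subunits. Plk1 had 1748 and 2090 normalized counts in the controls, and 2239 and 3633 in the irradiated libraries (log2 fold change 0.61, SE 0.239, unadjusted p = 0.0372, adjusted p = 0.708, edgeR). Irradiated library 2 held much of that difference, and the value was 0.22 without it. Ppp2r1a, the scaffold of PP2A, had 738 and 841 in the controls, and 931 and 1175 in the irradiated libraries (log2 fold change 0.42, SE 0.162, unadjusted p = 0.0372, adjusted p = 0.708), and 0.24 without irradiated library 2. Sgo1, the shugoshin of mitosis, had 1437 and 1527 in the controls, and 1470 and 1823 in the irradiated libraries, with overlap (log2 fold change 0.15, SE 0.153, adjusted p = 0.765). Sgo2b, a close copy of Sgo2a, had 114 and 127 in the controls, and 130 and 63.7 in the irradiated libraries, which lay on either side of the controls (log2 fold change -0.33, SE 0.334, adjusted p = 0.767). The sign of the fold change turned for both when irradiated library 2 was left out, to -0.011 for Sgo1 and 0.11 for Sgo2b. Of the Sgo2a stretches of 100 bases, 32.8% are also in Kctd18 or Sgo2b, read on either strand, and more of them in Kctd18. That share includes the overlap with Kctd18 on the opposite strand given above. Counts of these genes could thus be split by the authors' counting.

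Smc1b, the meiotic subunit with the highest mean level, was used to ask which genes had the most similar pattern. By the root mean square difference in log2(TPM + 1) over the 4 libraries, the nearest were Gna13 (0.049), Dusp19 (0.0494) and Fam207a (0.0496), and 36 genes lay within 0.1. As the choice of genes with a like pattern fixes, each of the 3 shared the peak of Smc1b in irradiated library 2, which describes them and is no further result.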

How the data were processed

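RNA-seq of 4 libraries of mouse oocytes was grouped by the condition and replicate number in the sample titles. Nothing in the labels says that same-numbered libraries, or libraries of 1 condition, came from separate cultures, and the study's methods speak of 2 independent experiments, so p-values measure the spread between these samples. The submitters' processing notes name HISAT2, Bowtie2, RSEM and the mm10 build, and the reads were paired-end of 100 bp. Per RefSeq transcript and library, the authors deposited estimated counts, unscaled for library size, and TPM values that the authors corrected for transcript length and scaled to the same total. The deposited 4 columns of FPKM and 6 columns of averages were not used.

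Estimated counts and TPM were summed by gene ID. Symbols and coordinates came from RefSeq of GRCm38.p6, in which 17323 of 17374 IDs matched, and exon overlaps and shared sequence from GENCODE annotation of GRCm38. Gene totals and transcripts, rounded to whole numbers, were fitted without a block by glmQLFit and glmQLFTest of edgeR 4.0.16 (R 4.3.3). The filter was filterByExpr (minimum count 10), TMM scaled gene totals by 0.923, 0.975, 0.937 and 1.19, and p-values were adjusted by Benjamini-Hochberg over every feature tested. Adjusted p-values in the text are from this fit unless another tool is named. The limits for a call, from the study's methods, were 0.05 for the adjusted p and 2 for the size of the log2 fold change. Isoform usage was called at an adjusted p under 0.05. A floor of 3 counts per library was used for folds against 0. The scripts were tested on simulated data. Alternatives used DESeq2 1.42.0, limma 3.58.1, other scaling, no filter, TPM with pseudocounts of 1 and 0.1 (genes with a mean of at least 1 TPM), the replicate number as a block and each library left out.

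The members and lists were chosen with earlier results of these data known. Named were all members, their transcripts with at least 10% of the gene in a library or an unadjusted p under 0.05, regulators with an unadjusted p under 0.05, and Sgo1, Sgo2b, Wapl, Nipbl and Espl1. The 3 genes nearest to Smc1b were named by likeness. Promoter motifs came from general knowledge. Levels, ring sums and likeness are descriptions without a test. Figures were drawn with matplotlib 3.10.9.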

Additional observations from a re-analysis of the deposited data

How the results depend on the processing

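With all 4 libraries, all 70 fold changes of the members computed under RLE factors, library size alone, no filter, DESeq2, limma-voom, TPM or the replicate block had the direction and the side of the limits of the values above. Library size alone moved the median of all genes from 0.010 to 0.17 and TPM with a pseudocount of 1 to 0.18, while the median of the 8 members that passed the filter on TPM (all but Stag3) moved from -0.31 to -0.17 and -0.045. Sizes moved more than directions: in TPM with a pseudocount of 1, Stag1 was -0.040, Sgo2a -0.051, Smc1a -0.13 and Stag2 -0.24, and Smc1b was 0.24, Rad21 0.23 and Rad21l 0.31. Gene totals called over all genes numbered 1 with TMM or RLE factors, 3 without a filter, 4 with DESeq2, 7 with the replicate block and 0 otherwise, and 0 members were called in each. Whether same-numbered libraries came from 1 experiment is not given in the labels. The difference between the controls and that between the irradiated libraries had r = 0.059 over 12569 genes. From 1 pair of differences, this cannot tell whether the libraries were paired. With the replicate block the smallest adjusted p of a member was 0.363 (edgeR), and isoform usage was called for 3 genes, against 16 without it. The F test called 58. Over all transcripts DESeq2 called 248 and edgeR 0, and of the members' transcripts DESeq2 called 1. With 1 library left out, and the lone library assumed to vary like the other condition (an alternative chosen after irradiated library 2 was seen to stand apart), 0 members and 16 to 87 genes were called, and 32 of 36 fold changes had the same direction. The log2 fold changes then ranged from -0.039 to 0.12 for Smc1b, which was -0.039 without control library 2 and -0.030 without irradiated library 2. They ranged from -0.20 to 0.42 for Rad21l and from -0.11 to 0.18 for Rad21, with the lower value without irradiated library 2. They ranged from -0.52 to -0.21 for Smc1a, -0.58 to -0.18 for Stag1 and -0.59 to -0.046 for Stag3. With curated NM transcripts alone, the control level was 0.225 TPM for Rad21, 2.44 TPM for Stag2, 1.25 TPM for Stag1 and 0.21 TPM for Stag3, and the log2 difference was -0.28 for Stag3 over Stag1 and 0.10 for Stag3 over Stag2. Without length correction the latter was 0.23. Rad21l has no NM transcript and gave no such value. The cause of these differences was not tested. Stag3 rested on the fewest counts of the members, 24 to 33 per library, and the effect of depth was not tested.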

Other observations

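Several regulators had far higher transcript levels than the ring itself, and the genes in this paragraph were named after their levels were seen. Pttg1, which encodes the separase inhibitor securin, had 12903 and 12236 TPM in the controls, and 11734 and 15575 TPM in the irradiated libraries. Ccnb1, the cyclin that with securin keeps separase inactive, had between 1877 and 1926 TPM. Esco2, an acetyltransferase of SMC3, had 419 and 467 TPM in the controls, and 429 and 487 TPM in the irradiated libraries, whereas its relative Esco1 had 39.0 to 45.4 TPM. Cdca5, which encodes sororin, the antagonist of WAPL, had 229 and 242 TPM in the controls, and 270 and 263 TPM in the irradiated libraries, beside 146 to 183 TPM for Wapl. Aurkc, the germ cell kinase of the chromosomal passenger complex, had 347 to 464 TPM. Espl1 and Nipbl were far lower, at 1.79 to 2.81 TPM and 2.34 to 2.65 TPM. Smc3, the most abundant ring subunit, reached 37.4 TPM.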
